A study of Saccharomyces cerevisiae with 30 samples.

Results

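The genes described here encode 56 Saccharomyces cerevisiae membrane proteins whose first targeting signal is made late, among 5904 open reading frames in the deposited tables. The rule that chose them uses the authors' annotation alone, but it was written with earlier results of these counts known. A member is in the authors' transmembrane class (569 genes), has its first predicted signal at codon 150 or later, and has 130 or more codons from that signal to the stop codon. Several gene families and single genes, which removed 6 otherwise eligible genes, were left out by name. In this set the first signal lay between codon 152 and codon 1280 (median 291), in open reading frames of 285 to 1785 codons.

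A hydrophobic stretch of a growing chain, once it leaves the ribosome, can be bound by the signal recognition particle (SRP), a complex of RNA and proteins that brings the translating ribosome to its receptor on the endoplasmic reticulum (ER). There the ribosome docks on the Sec61 channel and the chain is inserted as it is made. A protein whose first signal is late is translated for a long stretch with no signal outside the ribosome, so it separates the arrival of SRP at an mRNA from the exposure of the signal. Members include drug pumps, nutrient carriers, vacuolar proton pump subunits, sterol and fatty acid enzymes and inner nuclear membrane proteins. Some are mitochondrial or lipid droplet proteins, which do not use the ER route in the same way.

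The study compared ribosomes and mRNA in the soluble fraction, the membrane fraction and the material that copurified with SRP72, a protein subunit of SRP, from the soluble fraction. Ribosome footprints, the fragments of about 30 nt that a ribosome shields from RNase I, came from strain BY4741 with the genotype srp72::SRP72-TAP-HIS3MX, in which the tag serves for the pulldown. All BY4741 libraries, the soluble controls included, carry that tag. Polysomes without drug have 2 libraries for each of soluble, membrane and SRP72-bound material, while cultures given 100 µg/mL cycloheximide (CHX, which stalls ribosomes on mRNA) at harvest have 1 library for each fraction. Poly(A) mRNA has 1 library per fraction from BY4741 lysates incubated with CHX or with puromycin, which releases growing chains from ribosomes. It also has 1 per fraction, soluble and membrane only, from W303, for which the labels give no genotype, and from the prt1-1 strain CY2522, grown at 25 °C or shifted to 37 °C for 1 h. PRT1 encodes a subunit of the translation initiation factor eIF3, and prt1-1 is a temperature-sensitive allele. All cultures grew in YPD to mid-log phase. The labels do not say whether the 2 replicates came from separate cultures, and their p-values therefore cover the spread between the libraries alone, which may be technical.

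The libraries held 3138839 to 34661880 counts. The ER markers matched the fraction labels. All 14 ER lumen and translocon genes examined were higher in membrane than in soluble polysomes (median log2 fold change 6.37) and in SRP72-bound polysomes (6.82). The cytosolic enzyme markers did not separate membrane from soluble polysomes. Of 14 cytosolic enzyme and chaperone genes, 4 were called higher and 3 lower on membranes (median 0.07), and 10 were lower in the SRP72-bound material (-0.46). All 17 single-copy cytosolic ribosomal protein genes were lower in both (medians -0.61 and -1.04).

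The late position of the signal leaves less of the frame behind it. The share of the open reading frame after the first signal ran from 10.99% for YSP2, which moves sterol from the plasma membrane to the ER at contact sites, to 81.2% for FKS3 (median 54.8%). For comparison, 400 transmembrane genes with the same minimum length after the signal, and the same names left out, have their first signal before codon 150. Their signal lay at a median of codon 35 and 91.4% of the frame followed it, while the number of codons from signal to stop was close, with a median of 414.5 against 412. Just inside the limit on signal position were GET2 at codon 152, MPS3 at 153, YIF1 at 154 and YPR147C at 155, and just outside were BRE4 at 146 and JEN1 and PMA2 at 141. On the limit of 130 codons after the signal, VTC2 with 132, GET2 with 133 and RAX1 with 137 lay just inside and YND1 with 129 and VTC3 with 125 just outside. After YSP2, the latest signals belonged to YNR065C at codon 937, VAC7 at 920, VTC2 at 696 and PCA1 at 559.

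The authors' deposited table gives, for 35 members, whether SRP was present before a signal was exposed (prerecruitment) and whether a peak of direct binding was seen. Prerecruitment was given as yes for 27 of 35 members, or 77.1%, against 267 of 285 (93.7%) of the genes with an early first signal. The 8 members without it were ARE2, BSD2, GET2, PDR5, SCS7, SRC1, VTC2 and YIF1. Of these 8, 5 had fewer than 200 codons after the signal, against 3 of the 27 with prerecruitment.

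Pronounced direct binding was given for 18 of the 35 members (51.4%) and for 143 of 285 early-signal genes (50.2%). In the authors' deposited table the binding position lay 44 to 173 codons after the first signal in these 18 members (median 95), and a median of 77 codons after it in the 143 others. For the 6 members whose binding the authors assigned unambiguously, the median distance was 62.5 codons, and for 45 such early-signal genes 59. The inner nuclear membrane protein SRC1 has its signal at codon 453 and binding at codon 514. VAC7, which regulates the synthesis of a vacuolar phosphoinositide, has its signal at 920 and binding at 974, and YSP2 at 1280 and 1344. The peaks lay late in these frames, as the signals do. The smallest distance was 44 codons in members and in early-signal genes alike. How the authors sought the peaks was not examined here. If they were sought only after a signal, a late signal would force a late peak, so this position is no separate result. A further mark of the authors' deposited table, named Loop, was yes for 12 of 24 members (50%) and for 45 of 187 early-signal genes (24.1%). No difference between these shares was tested.

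Most members had higher footprint levels in membrane than in soluble polysomes. Levels were scaled to a common library size, so they do not say how the footprints of a message divide between the fractions. Of 56 members, all of which passed the filter on low counts, 49 were higher in membrane than in soluble polysomes, 0 were lower and 7 were not called (edgeR quasi-likelihood test, Benjamini-Hochberg adjusted p under 0.05 over 5393 genes). Over all genes tested 34.2% were called higher and 34.9% lower. The members' median log2 fold change was 2.96, with a range from -0.28 to 6.14, and the median over all genes was -0.07. More than 2-fold enrichment was found for 42 members, against 23.5% of all genes. Leaving out 1 library at a time gave 45 to 50 members higher. Of the early-signal genes 372 of 388 tested were higher, with a median of 4.70. The difference between these medians was not tested.

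**Figure D1:**
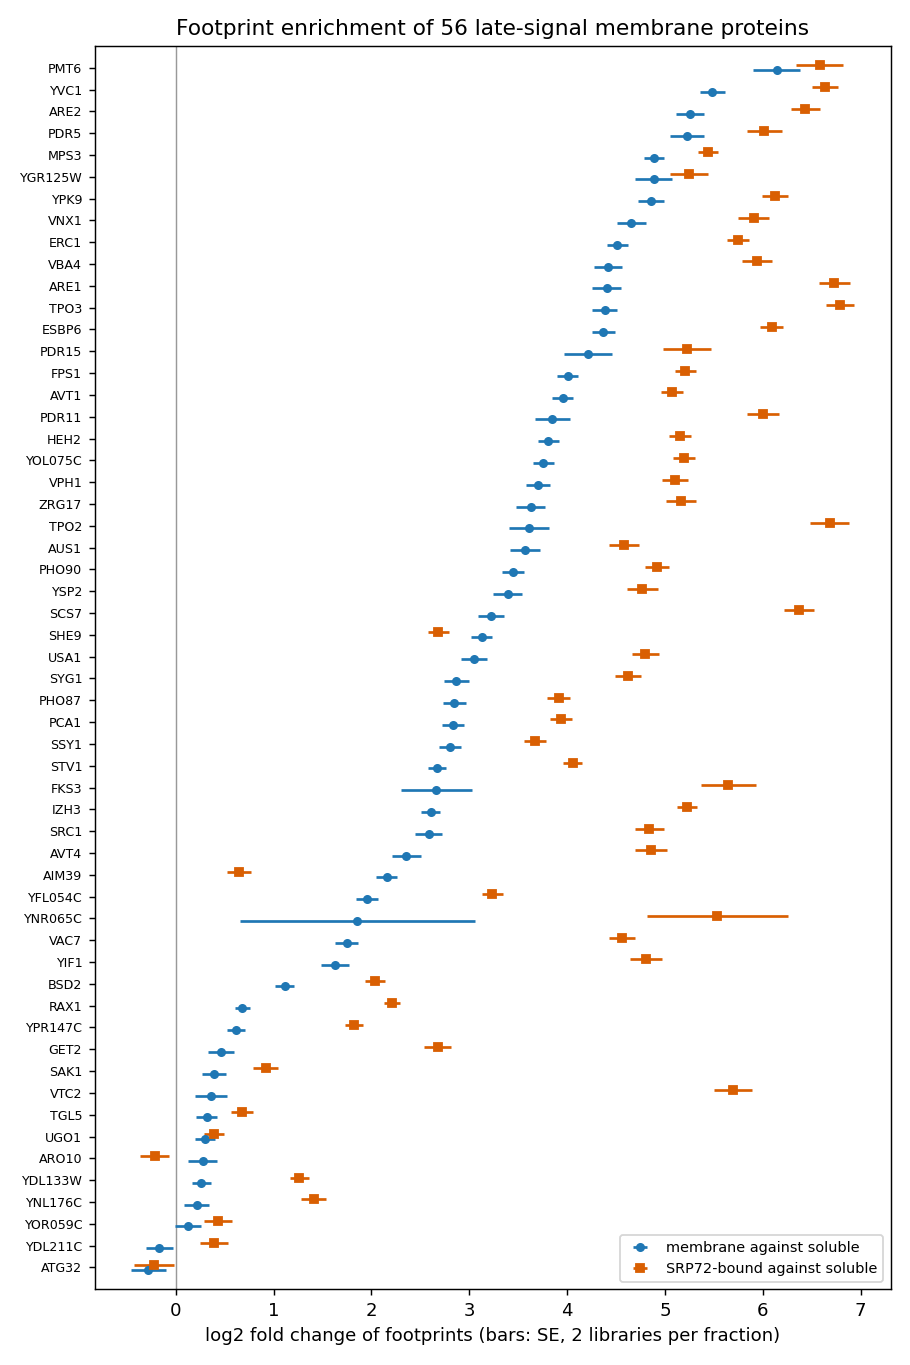
Log2 fold change of footprints in membrane (circles) and SRP72-bound polysomes (squares) against soluble polysomes for the 56 members, ordered by the membrane value; bars are standard errors from the fit (2 libraries per fraction). Membrane values run from -0.28 for ATG32 to 6.14 for PMT6, and VTC2 has 0.36 on membranes and 5.70 in the SRP72-bound material.

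Pumps and carriers were uniformly on the membrane side. All 7 pumps on the list of ATP-driven and ion-exchanging transporters were higher, with a median of 4.21. PDR5, the main plasma membrane drug efflux pump, had 246 and 267 CPM (counts scaled to a common library size by TMM, n = 2 libraries per fraction) in soluble polysomes, 10178 and 8984 in membrane polysomes and 14845 and 18398 in SRP72-bound polysomes. The soluble libraries lay far below all others. Its log2 fold change on membranes was 5.22 ± 0.17 (SE, edgeR adjusted p = 3.06e-08). YPK9, a vacuolar P-type ATPase linked to manganese tolerance, reached 4.86 and VNX1, a vacuolar cation exchanger, 4.66.

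All 12 nutrient, ion and drug carriers were higher too, with a median of 3.62 and a range from 1.96 for the aquaglyceroporin-like YFL054C to 5.48 for YVC1, the vacuolar calcium channel. YVC1 had 5.53 and 6.26 CPM in soluble, 280 and 246 in membrane and 574 and 596 in SRP72-bound polysomes, so the fractions did not overlap. The vacuolar amino acid transporter AVT1 reached 3.96 and VBA4, a vacuolar membrane protein of the drug-proton antiporter family, 4.42. The polyamine exporters TPO2 (3.62) and TPO3 (4.38) are near-identical paralogs, and how reads mapping to both were counted is not given, so their values are uncertain.

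Of the 4 vacuolar ATPase, polyphosphate and vacuole membrane genes, 3 were higher on membranes. VPH1 and STV1 encode the alternative a subunits of the vacuolar proton pump, which reside on the vacuole and on the Golgi and endosomes. VPH1 had 226 and 242 CPM in soluble, 3199 and 2882 in membrane and 8054 and 8040 in SRP72-bound polysomes. Its membrane log2 fold change was 3.70 and that of STV1 2.67, although their signals begin at codons 418 and 464. VAC7 reached 1.75. The member of this group that was not called on membranes was VTC2.

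The 4 lipid enzymes and regulators were all higher, with a median of 3.90. ARE2 and ARE1, the enzymes that esterify sterols, reached 5.26 and 4.41. The frame of ARE1 overlaps another counted open reading frame, so its reads may be shared. SCS7, which hydroxylates the fatty acid of ceramides, had 39.6 and 41.9 CPM in soluble, 392 and 371 in membrane and 3733 and 3018 in SRP72-bound polysomes, a rise from each fraction to the next. YSP2, with the latest signal of all, still reached 3.39 ± 0.15 (SE, edgeR adjusted p = 1.48e-07) with only 158 codons after that signal.

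The 3 nuclear envelope genes had a median of 3.81, with MPS3, a SUN-domain protein of the spindle pole body, at 4.89, HEH2 at 3.81 and SRC1 at 2.59. Among the quality control genes, USA1, a scaffold of the Hrd1 ubiquitin ligase, reached 3.05 and BSD2, an adaptor of the ligase Rsp5, 1.11. The 3 trafficking and sensing genes had a median of 1.63: IZH3 had 2.61, the transport factor YIF1 1.63 and RAX1, a bud site protein, 0.68. The highest membrane value of all belonged to PMT6 (chromosome VII, 897502 to 899781 in the R64 assembly of RefSeq), a protein O-mannosyltransferase of the ER, which is on none of the role lists. PMT6 had 3.35 and 3.09 CPM in soluble, 258 and 199 in membrane and 254 and 367 in SRP72-bound polysomes. That is a log2 fold change of 6.14 ± 0.24 on membranes (SE, edgeR adjusted p = 6.71e-08).

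Nearly all members had higher footprint levels in SRP72-bound than in soluble polysomes. Against soluble polysomes, 54 of 56 were higher, 0 were lower and 2, ATG32 and ARO10, were not called, beside 39.0% of all genes called higher and 38.9% lower. More than 2-fold enrichment was found for 48 members (25.8% of all genes). The median log2 fold change was 4.89, with a range from -0.22 to 6.79, against -0.04 over all genes and 6.26 for the early-signal genes, of which 380 of 388 were higher. This comparison and the membrane comparison share the 2 soluble libraries. The highest values were those of TPO3 (6.79), ARE1 (6.73), TPO2 (6.68), YVC1 (6.64) and PMT6 (6.58). By role the medians were 6.40 for the lipid genes, 5.91 for the pumps, 5.15 for the nuclear envelope genes, 5.12 for the carriers, 4.83 for the vacuolar group, 4.81 for the trafficking genes and 3.42 for the 2 quality control genes, all of whose members were called higher.

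The filter on low counts matters for few of these genes. In both soluble libraries, 55 members had 10 or more counts and 52 had 50 or more. YNR065C, a sortilin homolog of unknown function that resembles other yeast genes, had 2 and 0 counts in soluble, 4 and 1 in membrane and 27 and 11 in SRP72-bound polysomes. It passed only through the SRP72-bound libraries, so its call there had to follow and is no evidence, and no fold is given. Without it, a choice made after its counts were seen, 53 of 55 members were higher in SRP72-bound than in soluble polysomes, 47 of them by over 2-fold. Its mRNA was not scarce: it had 800 counts in the soluble, 1693 in the membrane and 1877 in the SRP72-bound mRNA library of the CHX lysate.

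SRP72-bound polysomes exceeded membrane polysomes for most members. In this direct comparison 48 members were higher, 3 were lower and 5 were not called, beside 29.7% of all genes called higher and 28.7% lower. The median was 1.26, near the 1.27 of the early-signal genes, and 40 members were over 2-fold higher (11.9% of all genes). These counts include YNR065C, and without it 47 of 55 were higher, 39 of them by over 2-fold. Of the 56 members 44 were called higher in both fractions against soluble polysomes and higher again in the SRP72-bound material than on membranes. The share of all genes with this joint pattern was not counted, and the 3 comparisons share libraries. The 44 therefore describes the members alone and does not set them apart from other genes.

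The largest such difference was that of VTC2 (chromosome VI, 131810 to 134296 in R64), a subunit of the vacuolar polyphosphate polymerase complex with its first signal at codon 696 and 132 codons after it. It had 327 and 328 CPM in soluble, 416 and 425 in membrane and 19766 and 14215 in SRP72-bound polysomes. The soluble and membrane libraries were close to each other, and the SRP72-bound libraries stood far above both. The membrane log2 fold change of 0.36 ± 0.16 (SE) was not called (edgeR adjusted p = 0.0757), the SRP72-bound one was 5.70 ± 0.20 (edgeR adjusted p = 2.48e-08), and SRP72-bound polysomes exceeded membrane polysomes by 5.34 ± 0.19 (edgeR adjusted p = 6.49e-07). The membrane value was called in the fit without the SRP72-bound libraries (0.36, edgeR adjusted p = 0.00408). Per 1000 codons, the mean footprint level of VTC2 in SRP72-bound polysomes was 20520 CPM, the highest of the members there, ahead of PDR5 with 11001, VPH1 with 9580 and SCS7 with 8791. In membrane polysomes PDR5 was highest with 6341 CPM per 1000 codons, followed by VPH1 with 3620 and SCS7 with 993, and VTC2 had 508.

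After VTC2, and leaving YNR065C aside, the differences were largest for YIF1, SCS7 and TPO2, all of which were also higher on membranes than in soluble polysomes. YIF1 had 69.4 and 68.9 CPM in soluble, 220 and 208 in membrane and 2226 and 1653 in SRP72-bound polysomes, a difference of 3.18 between the last pair of fractions. The corresponding difference was 3.15 for SCS7 and 3.07 for TPO2, followed by 2.98 for FKS3, 2.81 for VAC7 and 2.62 for IZH3. GET2, a subunit of the ER receptor for tail-anchored proteins and a membrane protein itself, had 75.02 and 71.8 CPM in soluble, 106 and 96.6 in membrane and 533 and 408 in SRP72-bound polysomes. Its membrane log2 fold change was 0.47 and its SRP72-bound one 2.68, a difference of 2.21.

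**Figure D2:**
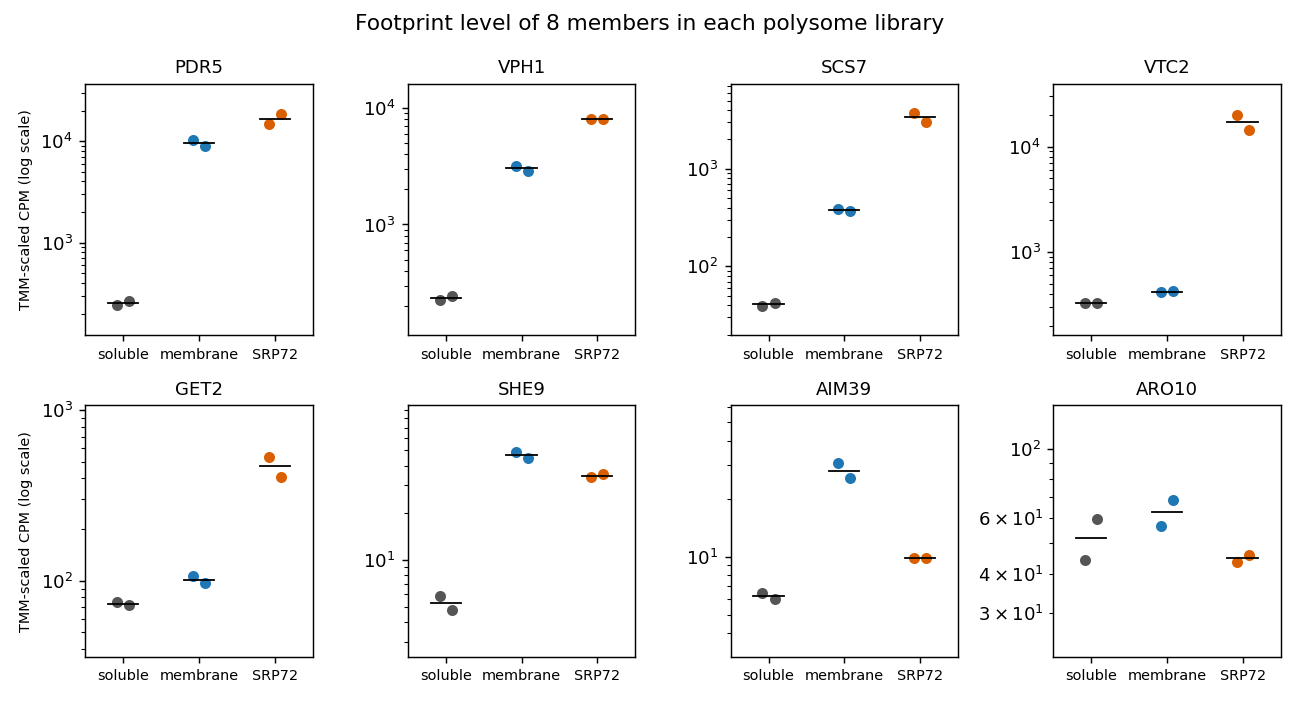
Footprint level in CPM after TMM scaling (log axis, a different range in each panel) of 8 members in each of the 2 libraries of soluble, membrane and SRP72-bound polysomes; horizontal lines are means. PDR5, VPH1 and SCS7 rise from soluble to membrane to SRP72-bound, VTC2 and GET2 mainly in the SRP72-bound libraries, and AIM39 and SHE9 are highest on membranes.

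The 3 members lower in SRP72-bound than in membrane polysomes were AIM39, ARO10 and SHE9. SHE9 encodes a protein of the mitochondrial inner membrane, and AIM39 is named for altered inheritance of mitochondria. AIM39 had 6.51 and 6.03 CPM in soluble, 30.4 and 25.5 in membrane and 9.88 and 9.83 in SRP72-bound polysomes, so it was highest on membranes. Its membrane log2 fold change was 2.16 and its difference between SRP72-bound and membrane polysomes -1.51 ± 0.11 (SE, edgeR adjusted p = 1.67e-05). SHE9 had 5.84 and 4.79, 48.5 and 45.0, and 33.7 and 35.4 CPM, with -0.44 for the same difference.

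Of the mitochondrial genome's own 8 genes, 2 passed the filter on low counts. With so few reads in the other fractions, they could pass only through the membrane libraries. Their calls, higher on membranes and lower in SRP72-bound than in membrane polysomes, had to follow and are no evidence, so no fold is given. The summed level of the 8 was 0.175 to 0.234 CPM in soluble, 3.32 to 4.70 in membrane and 0.575 to 0.961 in SRP72-bound polysomes, and in each soluble and SRP72-bound library 3 of the 8 were at 0. On membranes ATP8 was at 0 in both libraries and OLI1 in replicate 2. The part of mitochondria in the AIM39 and SHE9 values was not tested.

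Other members of mitochondria or the cytosol showed little or no enrichment. UGO1, an outer membrane protein needed for mitochondrial fusion, had 21.5 and 18.7 CPM in soluble, 25.6 and 24.0 in membrane and 28.4 and 24.2 in SRP72-bound polysomes, with log2 fold changes of 0.30 and 0.39, the second of which was not called without soluble replicate 2 or without SRP72-bound replicate 1. ATG32, the mitophagy receptor of the outer membrane, was at -0.28 and -0.22, neither called. ARO10, a phenylpyruvate decarboxylase not known as a membrane protein, had 44.2 and 59.5 CPM in soluble, 56.8 and 68.6 in membrane and 43.4 and 45.9 in SRP72-bound polysomes, so its soluble and membrane libraries overlapped. It was at 0.27 on membranes (edgeR adjusted p = 0.125) and -0.49 between SRP72-bound and membrane polysomes (edgeR adjusted p = 0.0243). That call was lost without membrane replicate 2 or without either SRP72-bound replicate. Leaving out UGO1, SHE9, ATG32 and AIM39, a choice made after seeing the data, gave 46 of 52 members higher on membranes and 51 of 52 in the SRP72-bound material.

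Besides VTC2, ATG32, ARO10 and YNR065C, the members not called on membranes were YDL211C (-0.17), YNL176C (0.21) and YOR059C (0.13). YDL211C and YNL176C are poorly characterised. YOR059C (LPL1 in RefSeq) encodes a phospholipase of lipid droplets. Their SRP72-bound log2 fold changes were 0.39 for YDL211C, 1.41 for YNL176C and 0.43 for YOR059C, all called. The calls of YDL211C and YOR059C were lost without either soluble replicate or without SRP72-bound replicate 1. The lipid droplet lipase TGL5 (0.32), the kinase SAK1 (0.39), which activates Snf1, and YDL133W (0.26, SRF1 in RefSeq) were called on membranes at small values. The YDL133W call was lost without soluble replicate 2 and without either membrane replicate. The 21 members on no role list had the lowest median on membranes, 0.62, with 15 called higher, and 1.82 in the SRP72-bound material, with 19 called higher. The 19 include YNR065C, whose call is no evidence.

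Membrane footprint values of the polysomes followed the length left after the signal more closely than its position. Over the 56 members, Pearson's r between the membrane log2 fold change and the number of codons from signal to stop was 0.51 (Spearman's rho 0.63), and with the share of the frame after the signal 0.62 (rho 0.67). With the position of the first signal r was -0.11 (rho -0.18). For membrane mRNA in W303 position had a larger coefficient than length. At 25 °C r was -0.23 with position (rho -0.37) and 0.11 with length (rho 0.22). At 37 °C it was -0.25 (rho -0.38) and 0.10 (rho 0.20). The share of the frame after the signal had 0.41 (rho 0.37) and 0.39 (rho 0.37) there. For membrane mRNA of the CHX lysate r was 0.19 with length and -0.11 with position, and in prt1-1 at 25 °C 0.22 and -0.16. In the puromycin lysate it was 0.32 and 0.08, and in prt1-1 at 37 °C 0.01 and 0.03. These are descriptions across genes of the same libraries, and total frame length is one of their shared factors (r = 0.36 with the membrane value). Among the 16 members with 130 to under 200 codons after the signal, 9 were called higher, with a median of 0.54. All 10 with 200 to under 400 codons were higher (median 2.60), as were all 30 with 400 or more (3.93).

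Early-signal genes with the same lengths after the signal had higher medians in each class: 2.12 (49 of 57 higher), 4.63 (128 of 132) and 5.31 (195 of 199). In the SRP72-bound material the contrast was widest for the shortest class. Members with under 200 codons after the signal had a median of 2.12 (14 of 16 higher), and early-signal genes of that class 6.16 (55 of 57). The 14 include YNR065C, whose call is no evidence, and the median of 2.12 includes its value. For 200 to under 400 codons the medians were 4.82 and 6.26, and for 400 or more 5.34 and 6.27. The shortest class of members ran from -0.22 to 6.37 and holds ATG32, ARO10, SHE9, YDL211C and YOR059C as well as VTC2, SCS7 and YIF1, so its median describes a mixture. None of these differences was tested.

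The difference between SRP72-bound and membrane polysomes was also set against length. Among early-signal genes the difference was 3.62 (median) in the shortest class, 1.57 in the middle one and 0.77 in the longest, with r = -0.44 (n = 388). Among members it was 1.20, 1.44 and 1.24, with r = -0.03 (n = 56). The 1.20 and the r include YNR065C, which passed the filter only through the SRP72-bound libraries. VTC2, YIF1 and SCS7 in the shortest class had values near or above the early-signal median, while UGO1 and AIM39 in the middle one had 0.09 and -1.51. The 15 late-signal genes with fewer than 130 codons after the signal, which are no members, had a membrane median of 0.23 (5 of 14 tested higher) and an SRP72-bound median of 1.76 (14 of 14).

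**Figure D3:**
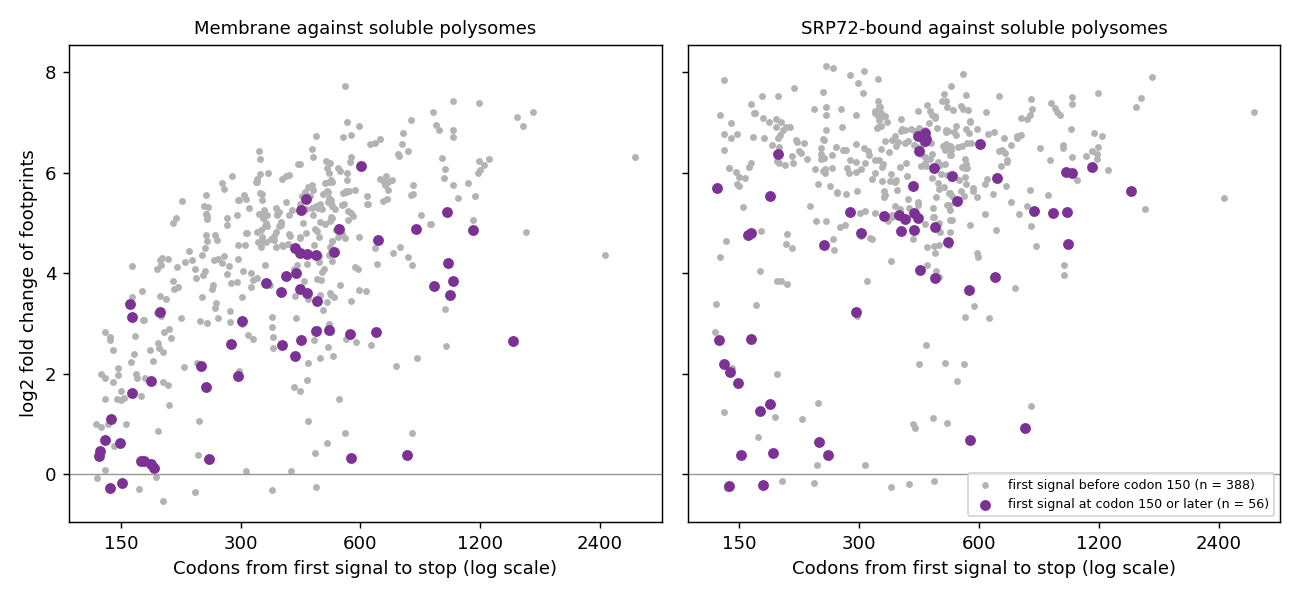
Log2 fold change of footprints against the number of codons from the first signal to the stop codon (log axis), for membrane (left) and SRP72-bound (right) against soluble polysomes; dark points are the 56 members and grey points the 388 tested genes with a first signal before codon 150. On membranes both groups rise with length, with member medians of 0.54, 2.60 and 3.93 in the 3 length classes, and in the SRP72-bound panel 8 members, 4 of them with under 200 codons, and 11 early-signal genes are not over 2-fold higher.

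The order of members was similar with cycloheximide in the culture. That series has 1 library per fraction, so values are given with no test and a change means more than 2-fold, for genes with 100 or more counts summed over the libraries of a comparison. The same holds for all mRNA comparisons. The membrane fraction here was total membrane ribosomes, compared with soluble ribosomes. In it 39 of 53 members were over 2-fold higher (19.3% of all genes), with a median of 1.79, and 49 of 55 were in the SRP72-bound polysomes (24.5%), with a median of 4.73. Across members the values without and with the drug correlated with r = 0.86 on membranes (n = 53) and 0.93 in the SRP72-bound material (n = 55). The highest membrane values were those of YVC1 (3.81), ERC1 (3.56) and MPS3 (3.30). VTC2 again had 351 CPM in soluble and 487 in membrane ribosomes, and 322 in soluble against 8694 in SRP72-bound polysomes.

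The mRNAs were distributed like the footprints, with smaller differences. In the CHX lysate 29 of 56 members were over 2-fold higher in membrane than in soluble mRNA (17.7% of all genes), 1, YDL211C, was over 2-fold lower (3.14%), and the median was 1.06. In SRP72-bound mRNA 45 were higher (21.4%), with a median of 2.61. Early-signal genes had medians of 2.22 and 4.32. Footprint and mRNA values correlated across the members with r = 0.86 for membranes and 0.89 for SRP72. PMT6 had 46.8 CPM in soluble, 319 in membrane and 1379 in SRP72-bound mRNA. ERC1 reached 2.67 and YVC1 2.46 on membranes. VTC2 mRNA, like its footprints, was high in the SRP72-bound fraction alone, with 395 CPM in soluble, 320 in membrane and 2831 in SRP72-bound mRNA.

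Most of these values were lower in the puromycin lysate. There 3 members, PMT6, YSP2 and YNR065C, were over 2-fold higher in membrane mRNA (6.53% of all genes) and the median was 0.31. Against the CHX lysate the membrane enrichment was lower in 48 of 56 members, and by more than 2-fold in 23 (16.7% of all genes). The median change was -0.81, against -1.54 for the early-signal genes and -0.00379 over all genes. The largest differences were those of AVT1 (-2.10), VBA4 (-2.04) and YGR125W (-2.04), a vacuolar membrane protein. VPH1 had 534 CPM in soluble and 2372 in membrane mRNA with CHX, and 965 and 1114 with puromycin, so its membrane level was lower and its soluble level higher with puromycin. The change was over 2-fold higher in 2 members (5.35% of all genes), YDL211C (2.04) and ATG32, and neither was enriched on membranes with CHX.

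SRP72-bound mRNA had larger changes between the lysates. With puromycin 24 members were over 2-fold higher than in soluble mRNA (17.8% of all genes), 2, SHE9 and YPR147C, were over 2-fold lower (20.7%), and the median was 0.85. Among the 24, YDL133W was at 1.15 with puromycin and at 0.50 with CHX. The change from the CHX lysate was below 0 in 54 members and past 2-fold in 40 (24.6% of all genes), with a median of -1.76 against -2.54 for the early-signal genes. With scaling by total counts 25 were past 2-fold. The change was -3.79 for SCS7, which had 2120 CPM in SRP72-bound mRNA with CHX and 246 with puromycin, beside 114 and 184 in soluble mRNA. YIF1 (-3.63) and VTC2 (-3.31) followed. VTC2 was at 314 CPM in SRP72-bound and 433 in soluble mRNA after puromycin, so it was below the soluble level.

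Retention after puromycin differed among members. PMT6 mRNA still had 82 CPM in soluble and 770 in SRP72-bound mRNA, a log2 difference of 3.23. YVC1 kept 2.55, PDR5 2.14 and ARE2 2.12. Across the members the puromycin-lysate SRP72 value had r = 0.48 with the codons after the signal (rho 0.59). All 30 members with 400 or more codons after the signal were above 0 (median 1.19), against 5 of 16 with under 200 codons (median -0.17). The median over all genes was -0.07. Neither early-signal genes of the same lengths nor total frame length were set against this value. A trend with the length after the signal therefore cannot be told apart from one with message length, and it was not tested. The position of the first signal had r = 0.02. The 3 highest changes were those of YDL133W (0.65), YOR059C (0.62) and SAK1 (-0.09).

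**Figure D4:**
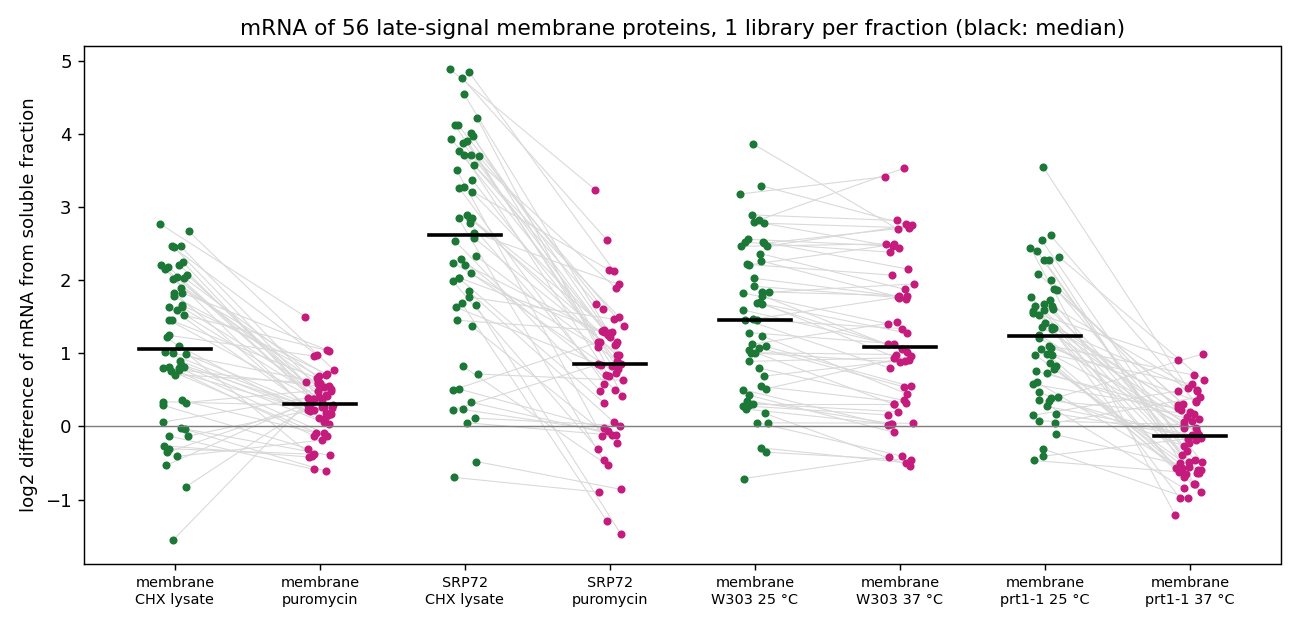
Log2 difference of mRNA between the membrane or SRP72-bound fraction and the soluble fraction for each of the 56 members (points, joined between paired conditions; black bars are medians; 1 library per fraction). Medians fall from 1.06 to 0.31 on membranes and from 2.61 to 0.85 for SRP72 with puromycin, and from 1.23 to -0.14 in prt1-1 between 25 °C and 37 °C, while W303 has 1.46 and 1.09.

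In the prt1-1 strain at 37 °C no member had mRNA over 2-fold higher on membranes. At 25 °C 38 of 56 members were over 2-fold higher in membrane mRNA in W303 (21.5% of all genes; median 1.46) and 32 in prt1-1 (22.0%; median 1.23). At 37 °C 30 were in W303 (18.6%; median 1.09), while in prt1-1 0 were (6.61% of all genes) and 1, PMT6, was over 2-fold lower (7.9%), with a median of -0.14. The shift from 25 °C to 37 °C came with a membrane enrichment over 2-fold lower in 35 members in prt1-1 (23.7% of all genes), with a median of -1.25. In W303 it did so in 1, HEH2 (5.74%), with a median of -0.15. The early-signal genes had -2.32 in prt1-1. Each strain and temperature has 1 library per fraction, and the difference between strains was not tested.

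The largest change in prt1-1 was that of PMT6, -3.66 on the log2 scale. In prt1-1 it had 33.1 CPM in soluble and 181 in membrane mRNA at 25 °C, and 91.4 and 39.3 at 37 °C, so the soluble level was higher and the membrane level lower after the shift. In W303 at 37 °C it had 27.9 and 298 CPM. ARE2 (-3.06), HEH2 (-3.03), YVC1 (-2.88) and VBA4 (-2.83) came next in prt1-1. HEH2 had 39.3 and 462 CPM at 25 °C and 113 and 163 at 37 °C. VPH1 went from 219 CPM in soluble and 688 in membrane mRNA to 848 and 432.

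Some members had little membrane enrichment at 25 °C and a small difference after the shift. VTC2 had 0.08 at 25 °C and 0.03 at 37 °C in prt1-1 and 0.30 in W303 at both temperatures. SAK1 (0.60), TGL5 (0.35) and YDL133W (0.33) had the highest changes in prt1-1, and SAK1 was the member with the highest membrane value at 37 °C there, 0.99. AIM39 had 1.46 and 1.76 in W303 and -0.31 and -0.98 in prt1-1, so its mRNA was on the membrane side in W303 and not in prt1-1 at either temperature. The 3 nuclear envelope genes were above 0 in prt1-1 at 37 °C (median 0.58, with SRC1 at 0.91), where the median over all genes was -0.03. All 3 were under 2-fold there, and HEH2 was at 0.52 after 3.55 at 25 °C. Members outside this group, SAK1 among them, were also above 0 there, so this is not particular to the nuclear envelope genes.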

How the data were processed

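Per the labels' protocols, BY4741, W303 and CY2522 cells were lysed cryogenically, fractions were separated by centrifugation, and tagged SRP72 was pulled down from soluble material. RNA was broken to about 40 nt. Count values deposited by the authors are unnormalized reads for each open reading frame, as their table headers say. CASAVA, cutadapt 1.3, Bowtie, TopHat and sacCer3 are named per the submitters' processing notes. Treatment of reads with several matches and use of strand are not given in the sources used here. Signal positions, classes and SRP marks were taken as the authors deposited them. The authors' deposited log2 enrichments were compared with the fit (fit minus authors -0.10, SD 0.00689 over 53 members, for membranes, and -0.15, SD 0.00971 over 52, for SRP72).

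Of 30 samples 24 libraries were used, and the 6 monosome samples are not analysed here. BY4741 RNA columns without a drug name were assigned to the CHX lysate by elimination. Of 5904 open reading frames, 3 nameless lines dropped, 5902 matched RefSeq locus tags, all 56 members included. The 6 polysome libraries were fitted together in R 4.3.3 with edgeR 4.0.16 (TMM, filterByExpr with a minimum count of 10, quasi-likelihood test, Benjamini-Hochberg adjustment at 0.05, 5393 genes, 3 residual degrees of freedom, common biological coefficient of variation 0.0805), after the scripts were tested on simulated data. Footprint libraries held 16058363 to 34661880 counts and mRNA libraries 3138839 to 34300082. Single libraries were compared as differences of log2 CPM (TMM over the assay, prior count 2, 100 or more counts). With 1 library no error is given, and counts cover counting error only.

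The members, role lists and tests were chosen with earlier results of these data known. Of 8 role lists 7 held members, and the list of kinases, phosphatases and GTPases held 0. Named genes are the 5 highest and 5 lowest members in each replicated comparison, those not called, the 5 earliest and 5 latest signals, the 3 highest levels per role list, and the 3 highest and 3 lowest in each single-library comparison. A few others named beside them (JEN1, PMA2, BRE4, YND1, VTC3 at the limits) are there for position only. Alternatives were DESeq2 1.42.0, other scalings, filters and limits, a replicate block and leaving out each library.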

Additional observations from a re-analysis of the deposited data

Results flagged for a closer look

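For 3 members single-library values went opposite ways in conditions under the same contrast, each past 2-fold. The differences were not tested, since each fraction has 1 library. PMT6 mRNA was higher on membranes in W303 at 37 °C (log2 difference 3.41, from 296 counts in soluble and 1648 in membrane mRNA) and lower in prt1-1 at 37 °C (-1.21, from 1647 and 386 counts). SHE9 mRNA was higher in the SRP72-bound than in the soluble fraction of the CHX lysate (1.68, from 851 and 708 counts) and lower in the puromycin lysate (-1.29, from 165 and 841 counts). YPR147C, a member with no gene symbol in RefSeq, had 1.66 with CHX (1848 and 1563 counts) and -1.47 with puromycin (297 and 1706 counts).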

How the results depend on the processing

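Across the alternatives, 161 of the 172 recomputed summary counts of members stayed within 1.5 times their value and 403 of 431 values of named members kept their direction and side of the threshold, with 13 newly called, 15 no longer called and 0 reversed. Leaving out 1 library gave 45 to 50 members higher on membranes, 51 to 54 in the SRP72-bound material and 46 to 50 between them, and 2 to 3 lower between them. The count lower in SRP72-bound than in soluble polysomes ranged from 0 to 1 (ARO10, -0.43, without soluble replicate 1). With no limit on the length after the signal 1 gene was lower on membranes. Without the 4 mitochondrial members, a setting added after seeing the data, 1 member was lower in SRP72-bound than in membrane polysomes. With signals at codon 200 or later (43 members) 15 had over 2-fold lower membrane enrichment with puromycin, and 19 were over 2-fold higher in W303 at 37 °C. With total counts 1 member was over 2-fold higher on membranes with puromycin, 25 were lower for SRP72 with puromycin, 1 was higher in prt1-1 at 37 °C and 4 were lower in W303 after the shift. Scaling to cytonuclear genes gave 5 members over 2-fold higher on membranes with puromycin and 1 in prt1-1 at 37 °C. The causes were not tested. That scaling moved the median of all genes from -0.07 to 0.15 on membranes and from -0.04 to 0.26 for SRP72, and the share of higher calls from 49.5% to 71.1% and from 50.1% to 67.7%, with 52 and 54 members higher. Total counts moved the all-gene median of the SRP72 change with puromycin from -0.06 to 0.91 and the members' from -1.76 to -0.78.

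VTC2 was called on membranes by DESeq2 (0.40) and with cytonuclear scaling (0.58), and YDL133W was not called by DESeq2. Same-numbered libraries deviated together by correlations of 0.32, 0.12 and 0.09, not over 0.1 in every pair, and the labels name no shared culture or day, so the numbers were not used as pairs. With the replicate block 51, 54 and 48 members were higher in the 3 comparisons, ARO10 and YNL176C being the 2 newly called on membranes. Depth limits YNR065C most.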
